A study of Rattus norvegicus with 4 samples.

Results

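Transforming growth factor beta (TGF-beta) signalling genes were followed in Sertoli cells treated with cAMP. The set holds 10 genes: the ligand genes Tgfb1, Tgfb2 and Tgfb3, the receptor genes Tgfbr1 and Tgfbr2, the signal transducer genes Smad2, Smad3 and Smad4, the inhibitory Smad7, and Tgfbi, which encodes a matrix protein that the ligands induce. A probe set is a group of oligonucleotides that reads 1 or more transcripts on an Affymetrix array. Probe sets were taken if their only gene symbol in the platform annotation was that of a gene in this set. This gave 15 of the 31099 probe sets on the array, for 9 of the 10 genes, out of 14217 genes named on the array. No probe set carried the symbol Tgfbr2 in the annotation used here, so that receptor was not analysed here. The cells came from testes of 20-day-old male Sprague-Dawley rats and were kept for 72 h in medium free of serum, with cAMP on 2 arrays and with no treatment on the 2 control arrays. The sources used here do not say which form of cAMP was added or at what dose. The labels call the arrays of a group biological replicates but do not say whether each had its own cell preparation, and the p-values therefore reflect only how far these arrays differ, which may be technical.

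TGF-beta ligands are secreted in a latent form, held by a propeptide and by latent TGF-beta binding proteins in the matrix. Once freed, a ligand binds the type II receptor, encoded by Tgfbr2, which phosphorylates the type I receptor, encoded by Tgfbr1. That receptor phosphorylates the SMAD2 and SMAD3 proteins, which enter the nucleus with SMAD4. SMAD7 is made in response and blocks the type I receptor. In the testis the ligands come from Sertoli cells and from the peritubular myoid cells around the tubule, and the product of Tgfb3 is known for loosening the junctions of the blood-testis barrier. cAMP is the second messenger of follicle-stimulating hormone in Sertoli cells.

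The arrays had median signals of 31.3 to 33.7, and 64.2% to 66.3% of the probe sets on each array exceeded the background of 14.2, set by the brightest of 27 Bacillus control probe sets. Log2 signals correlated across probe sets, which are not independent replicates, with r = 0.984 between the cAMP arrays, 0.967 between the control arrays and 0.895 to 0.925 across the groups. Actin probe sets at the 3' end were 1.86 and 1.65 times as bright as those at the 5' end on the cAMP arrays, against 1.80 and 2.25 times on the control arrays, a measure of RNA integrity. Of 11 Sertoli markers with a probe set, 10 were above background on every array, among them Clu, Cldn11, Wt1 and Inha. Rhox5, the remaining one, gave 21 and 14 on the cAMP arrays, against 5.7 and 16.7 on the control arrays. Sox9, Fshr and Trf had no probe set under those symbols here.

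Of the 15 TGF-beta probe sets, 11 were bright enough to be tested, and every one of the 9 genes had at least 1 among them. The test was limma on log2(signal + 16), with p-values adjusted by the Benjamini-Hochberg method over all 18625 probe sets tested and a threshold of 0.05. Each log2 difference is cAMP minus control, given ± its standard error. With cAMP, Tgfb1 and Tgfb3 rose, 1 probe set each of Tgfb2 and Smad4 fell, and 7 probe sets did not pass. The 2 higher probe sets compare with 7.29% of all probe sets called higher, and the 2 lower ones with 6.39% called lower. In all 4 of 11, or 36.4%, were called, against 13.7% of all probe sets, a share that rests on few probe sets, some of them of the same gene. The median log2 difference of the 11 was -0.04, against -0.04 over all tested probe sets. The cAMP arrays lay both above or both below the control arrays for 8 of the 11 (72.7%), against 58.2% of all probe sets tested. In these bulk samples, fewer cells of a type and less RNA per cell cannot be told apart.

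**Figure D1:**
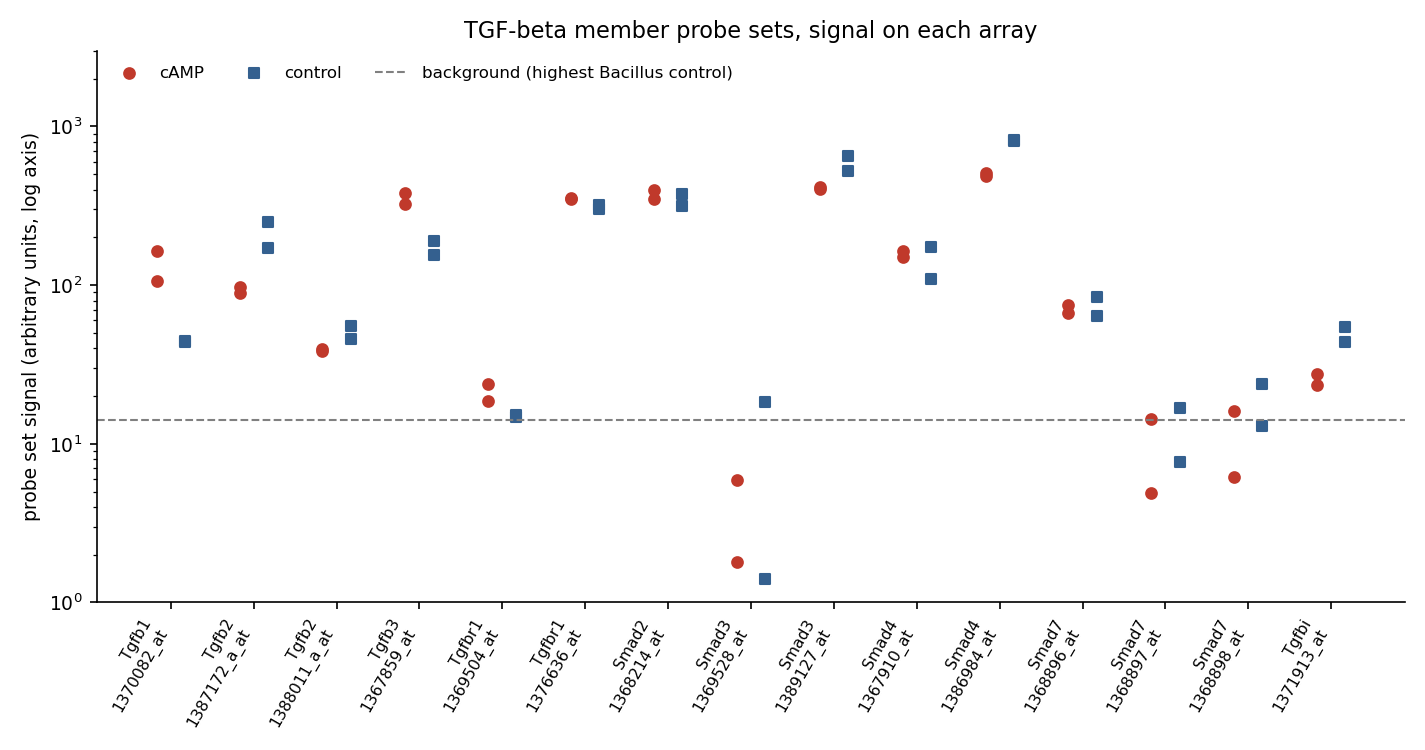
Signal of each of the 15 TGF-beta probe sets (log axis, arbitrary units) on the 2 cAMP arrays (circles) and the 2 control arrays (squares), with the background of 14.2 dashed. Tgfb1 and Tgfb3 lie higher on both cAMP arrays, Tgfb2 1387172_a_at and Smad4 1386984_at lie lower, and 1 probe set of Smad3 and 2 of Smad7 reach down to background.

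The ligand genes did not move as one. Tgfb1 and Tgfb3 were higher with cAMP while the brighter probe set of Tgfb2 was lower. Tgfb1, the most widely made isoform, gave signals of 163.6 and 106.8 on the cAMP arrays, against 44.1 and 44.6 on the control arrays. The groups did not overlap, and the cAMP arrays stood further from each other than the control arrays did. The mean was 135.2 ± 40.2 with cAMP and 44.4 ± 0.354 in control cells (SD, n = 2 arrays each), a ratio of 3.05. The log2 difference of Tgfb1 was 1.30 ± 0.23 (95% interval 0.76 to 1.84, limma adjusted p = 0.0105), and 0.86 ± 0.16 with a pseudocount of 64 in place of 16. It ranked 497th among the increases of the 18625 probe sets.

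Tgfb3, the isoform linked to the blood-testis barrier, had signals of 326.3 and 380.9 with cAMP, against 189.2 and 154.5 in control cells. Both cAMP arrays exceeded both control arrays. The mean was 353.6 ± 38.6 with cAMP and 171.8 ± 24.5 in control cells (SD, n = 2 arrays each), a ratio of 2.06. The log2 difference of Tgfb3 was 0.98 ± 0.17 (95% interval 0.58 to 1.38, limma adjusted p = 0.0105).

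Tgfb2, the remaining isoform, was read by 2 probe sets that differed in brightness. Both have the suffix _a_at, which Affymetrix gives to probe sets that read several transcripts of 1 gene. The brighter, 1387172_a_at, gave 88.6 and 97.6 on the cAMP arrays, against 251 and 170.3 on the control arrays. Here the cAMP arrays were the lower ones, without overlap, and the spread lay mostly between the control arrays. The mean was 93.1 ± 6.36 with cAMP and 210.7 ± 57.1 in control cells (SD, n = 2 arrays each), so that control was 2.26 times as bright. The log2 difference was -1.03 ± 0.21 (95% interval -1.53 to -0.53, limma adjusted p = 0.0202). The dimmer probe set, 1388011_a_at, gave 38.6 and 39.5 with cAMP, against 54.9 and 45.6 in control cells. Its groups did not overlap either, but its log2 difference of -0.26 ± 0.20 did not pass (95% interval -0.73 to 0.20, adjusted p = 0.442). Whether the responses of the 3 isoforms differ from each other was not tested beyond these intervals.

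The promoters of the 3 ligand genes are shown because these genes differed between the groups while lying on different chromosomes. The letters are the 250 bases before the gene start in RefSeq, build GRCr8, read 5' to 3' on the gene's own strand, which is chr1:90324062-90324311 on the plus strand for Tgfb1, chr13:100792686-100792935 on the minus strand for Tgfb2 and chr6:111456947-111457196 on the minus strand for Tgfb3. Capitals mark a match to the first 5 bases of the cAMP response element, TGACG, on either strand.
Tgfb1: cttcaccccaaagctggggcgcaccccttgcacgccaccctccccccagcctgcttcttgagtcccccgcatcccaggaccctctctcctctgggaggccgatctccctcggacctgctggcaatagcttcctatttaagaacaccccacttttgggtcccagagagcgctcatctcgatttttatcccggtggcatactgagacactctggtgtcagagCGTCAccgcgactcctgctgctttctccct
Tgfb2: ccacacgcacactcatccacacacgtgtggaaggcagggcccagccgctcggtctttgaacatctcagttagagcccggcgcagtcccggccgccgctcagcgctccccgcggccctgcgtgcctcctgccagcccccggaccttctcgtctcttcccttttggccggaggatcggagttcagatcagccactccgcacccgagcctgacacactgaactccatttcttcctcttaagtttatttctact
Tgfb3: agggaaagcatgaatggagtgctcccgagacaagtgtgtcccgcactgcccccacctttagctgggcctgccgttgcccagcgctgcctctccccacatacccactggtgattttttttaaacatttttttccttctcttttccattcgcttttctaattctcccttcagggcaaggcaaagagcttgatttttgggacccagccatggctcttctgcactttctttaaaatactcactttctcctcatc
The Tgfb1 window held 1 match to TGACG, read on the opposite strand and starting 30 bases before the gene start, while the Tgfb2 and Tgfb3 windows held none. Of 33465 windows of this length in the table, 18.2% held TGACG and 1.59% the full cAMP response element TGACGTCA, which contains it. None of the 3 windows held the full element, the AP-1 motif TGANTCA (6.34% of all windows), the GC box GGGCGG (30.5%), the SMAD-binding letters CAGAC (42.9%) or the SMAD-binding palindrome GTCTAGAC (0.173%), each searched on both strands. A match is a description of the letters and not evidence of binding.

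The type I receptor gene Tgfbr1, whose kinase acts on SMAD2 and SMAD3, did not pass. Its bright probe set, 1376636_at, gave 353.3 and 351.1 with cAMP, against 303.1 and 319.5 in control cells. The cAMP arrays were above the control arrays by a margin smaller than the test could separate, with a log2 difference of 0.17 ± 0.14 (95% interval -0.16 to 0.50, adjusted p = 0.484). The dim probe set of Tgfbr1, 1369504_at, stood just above background at 18.6 and 23.8 with cAMP, against 14.8 and 15.2 in control cells. It lay just under the brightness needed for testing, with a mean log2 value of 5.08 against a minimum of 5.10.

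Among the transducers, Smad4, the partner shared by TGF-beta and bone morphogenetic protein signalling, fell on one of its probe sets and not on the other. The probe set 1386984_at gave 509.2 and 490.6 with cAMP, against 821.7 and 806.4 in control cells. Both groups were tight and far apart, with means of 499.9 ± 13.2 with cAMP and 814 ± 10.8 in control cells (SD, n = 2 arrays each), control being 1.63 times as bright. The log2 difference was -0.69 ± 0.13 (95% interval -0.99 to -0.39, limma adjusted p = 0.0133). The other probe set of Smad4, 1367910_at, gave 150.4 and 165.1 with cAMP, against 173.2 and 109.2 in control cells. The cAMP arrays lay between the control arrays, and the log2 difference of 0.17 ± 0.23 did not pass (95% interval -0.36 to 0.70, adjusted p = 0.666). The direction for Smad4 thus rests on 1 of its 2 probe sets, and the data do not say which transcripts each one reads.

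The window before the Smad4 gene start, chr18:69549685-69549934 on the minus strand in GRCr8, is shown beside the ligand promoters because Smad4 is the fourth gene called. It is printed in lower case throughout, since none of the 6 motifs was found in it.
Smad4: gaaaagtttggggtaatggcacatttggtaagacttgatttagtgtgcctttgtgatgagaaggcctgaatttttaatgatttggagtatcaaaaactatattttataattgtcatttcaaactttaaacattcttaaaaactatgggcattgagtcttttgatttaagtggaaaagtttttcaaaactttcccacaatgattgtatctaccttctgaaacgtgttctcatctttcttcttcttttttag
Its GC content of 30.8% was below that of the Tgfb1 (60%), Tgfb2 (61.6%) and Tgfb3 (48.8%) windows and below the median of 51.2% over all windows. The window ends in a run of pyrimidines followed by ag, the letters that close an intron, so the gene start in the table may not be a start of transcription.

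The receptor-activated SMAD genes did not pass. Smad2 gave 351.3 and 400 with cAMP, against 374.5 and 314.3 in control cells, and the groups overlapped. Its log2 difference was 0.12 ± 0.16 (95% interval -0.25 to 0.50, adjusted p = 0.666). Smad3 on its bright probe set, 1389127_at, gave 403.5 and 416.7 with cAMP, against 655.6 and 526.3 in control cells. The cAMP arrays were close together and below both control arrays, yet the log2 difference of -0.50 ± 0.15 missed the threshold (95% interval -0.87 to -0.14, adjusted p = 0.0775). Without control replicate 2 it passed, at -0.66 ± 0.13 (adjusted p = 0.0149). The second Smad3 probe set, 1369528_at, was too dim to test, with 1.8 and 5.9 on the cAMP arrays, against 18.3 and 1.4 on the control arrays.

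Smad7, the inhibitor that TGF-beta itself induces in many cells, showed no call on any probe set. The probe set that could be tested, 1368896_at, gave 75 and 66.3 with cAMP, against 63.9 and 83.6 in control cells. The cAMP values lay inside the range of the control values, and the log2 difference was -0.04 ± 0.20 (95% interval -0.52 to 0.43, adjusted p = 0.915). The interval leaves room for a change of either sign. The other Smad7 probe sets lay around background and were not tested. They gave 14.3 and 4.9 with cAMP, against 16.9 and 7.7 in control cells (1368897_at), and 16.2 and 6.2 with cAMP, against 12.9 and 23.7 in control cells (1368898_at).

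Tgfbi, a matrix protein gene named for its induction by TGF-beta, gave 23.4 and 27.4 with cAMP, against 54.4 and 43.9 in control cells. The groups did not overlap, and control was 1.94 times as bright in mean signal. The log2 difference of -0.65 ± 0.21 did not pass (95% interval -1.14 to -0.16, adjusted p = 0.0862). As a dim probe set it is understated on the log2(signal + 16) scale.

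**Figure D2:**
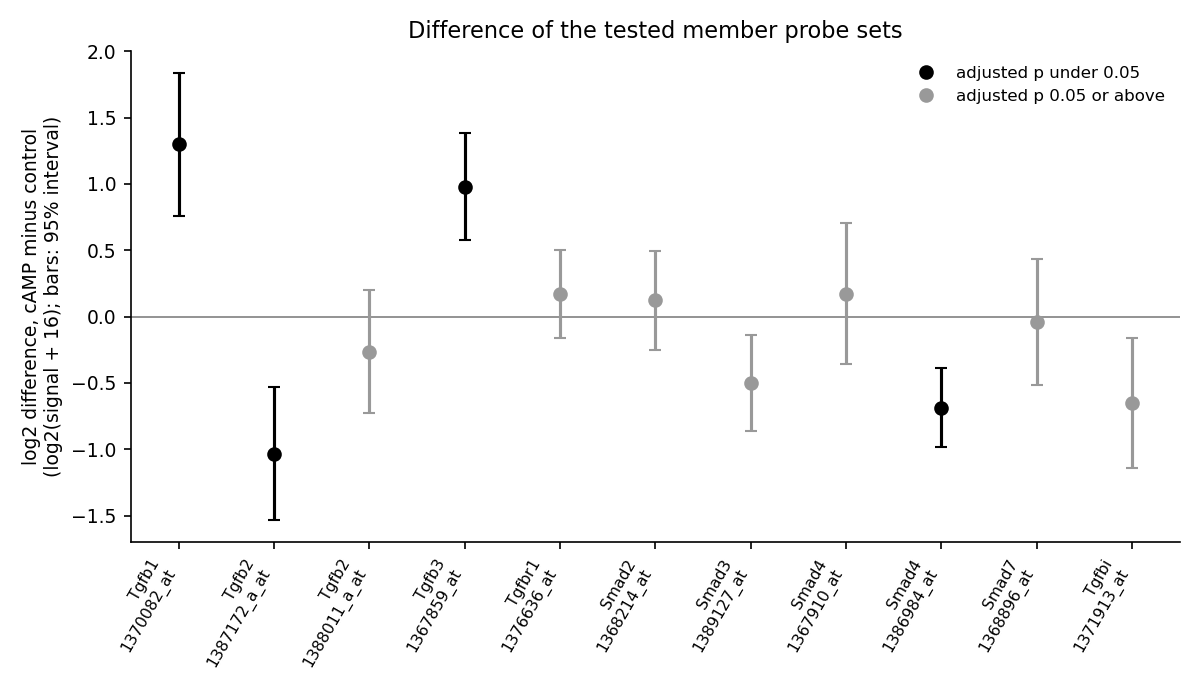
Log2 difference (cAMP minus control, log2(signal + 16)) of the 11 tested probe sets, with 95% intervals from limma. Black points passed the adjusted p threshold of 0.05 and grey points did not. Tgfb1 and Tgfb3 stand above 0, Tgfb2 1387172_a_at and Smad4 1386984_at below it.

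The 4 calls did not all survive the loss of a cAMP array. Without cAMP replicate 1 none passed, with adjusted p by limma of 0.131 for Tgfb1, 0.175 for Tgfb2, 0.0821 for Tgfb3 and 0.15 for Smad4. In that setting the log2 differences were 1.02 for Tgfb1, -0.97 for Tgfb2, 1.09 for Tgfb3 and -0.71 for Smad4. Fewer of all probe sets were called there as well than with all arrays, so the loss of calls is not particular to these genes. Without cAMP replicate 2 Tgfb1 alone passed (adjusted p = 0.0315), and Tgfb2, Tgfb3 and Smad4 had adjusted p of 0.12, 0.141 and 0.168, with 4.15% of all probe sets called. Over the 4 arrays left out in turn, the log2 differences ranged from 1.02 to 1.57 for Tgfb1, from 0.84 to 1.11 for Tgfb3, from -1.29 to -0.77 for Tgfb2 and from -0.71 to -0.66 for Smad4. All 4 kept their direction when either control array was left out. More of all probe sets were called without control replicate 1 than with all arrays, so a call there is not particular to these genes. When dim probe sets were kept in the fit, Tgfb2 missed the threshold (adjusted p = 0.0545).

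**Figure D3:**
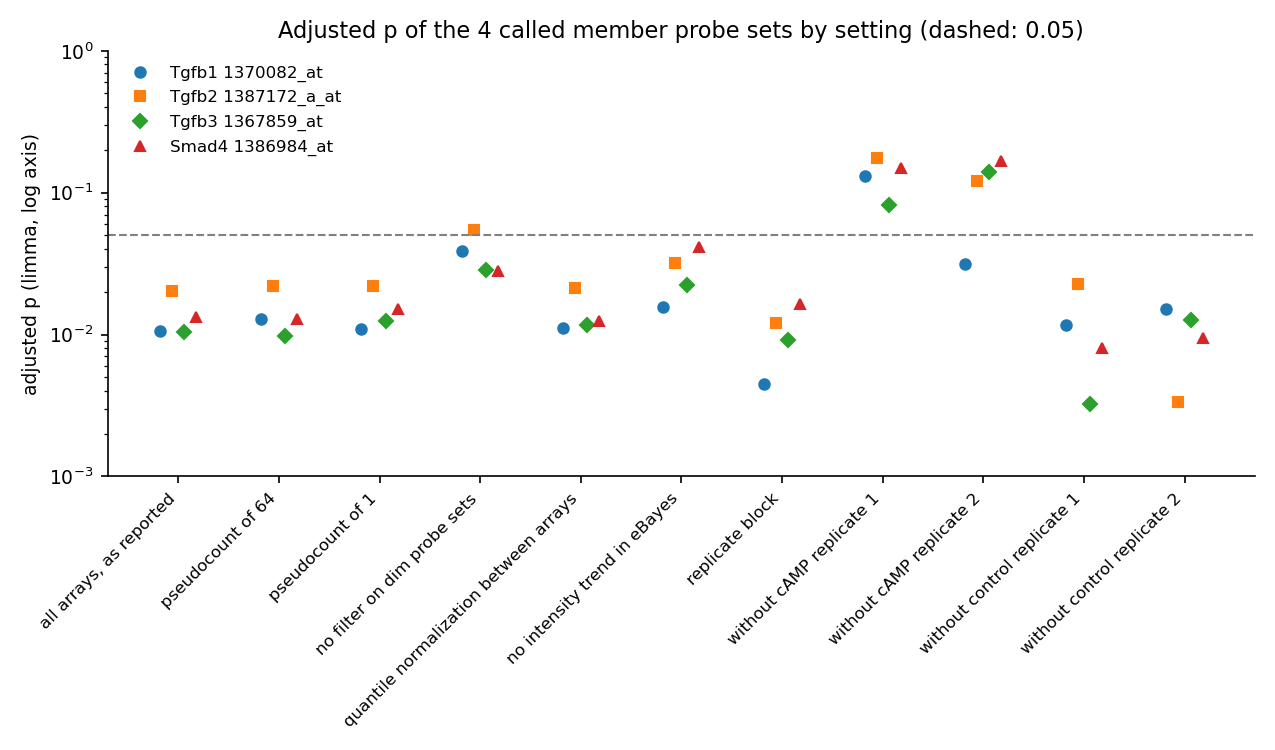
Adjusted p by limma (log axis) of the 4 called TGF-beta probe sets with all arrays, under 6 other settings and with each array left out, the threshold of 0.05 being dashed. The points above the line are all 4 probe sets without cAMP replicate 1, Tgfb2, Tgfb3 and Smad4 without cAMP replicate 2, and Tgfb2 with dim probe sets kept.

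Tgfb1 had the largest absolute log2 difference of the set with all arrays and a pseudocount of 16, but not without cAMP replicate 1, where it stood at 1.02 and Tgfb3 at 1.09. The 3 named genes whose centred log2 values over the 4 arrays lay nearest to its own were Tmem221 (Euclidean distance 0.16), Abhd13 (0.183) and Bmp2k (0.197). Bmp2k gave 889.2 and 680.4 with cAMP, against 350.4 and 327.3 in control cells, with cAMP replicate 1 the brightest array as for Tgfb1. With 4 arrays in 2 groups, this likeness says little beyond a similar difference between the groups.

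Around these genes, 4 lists of other pathway genes were read, with the brightest probe set of each gene. Taken once each, 68 of their 90 genes could be tested, 9 rose and 7 fell. These are 13.2% and 10.3% of the 68, against 8.27% and 7.14% of all 10035 named genes tested. The median log2 difference was -0.08, against -0.03 over all named genes. Of 12 tested genes for proteins that hold or release the latent ligand, 3 rose and 1 fell, with a median of 0.28.

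Ltbp1, which tethers the latent complex to the matrix, gave 601.8 and 474.5 with cAMP, against 176.4 and 179.7 in control cells (log2 difference 1.50 ± 0.17, adjusted p = 0.00151). Fbn1, the fibrillin to which such binding proteins attach, gave 566.1 and 522.1 with cAMP, against 205.5 and 160.6 in control cells (1.50 ± 0.17, adjusted p = 0.00156). The groups lay well apart for both. Ltbp2 was too dim to test, with 12 and 3.8 on the cAMP arrays, both under background, against 49.4 and 21.7 on the control arrays. The geometric mean of its control signals was 2.31 times the background. Ltbp3 (0.07 ± 0.20) and Ltbp4 (-0.13 ± 0.21) did not pass. Dcn, whose product decorin binds TGF-beta, gave 465.5 and 381.7 with cAMP, against 1.9 and 17.1 in control cells, the first of these under background, which leaves its fold change ill defined. The related proteoglycan gene Bgn went the other way, with 348.7 and 339.2 with cAMP, against 703 and 607.4 in control cells (-0.90 ± 0.14, adjusted p = 0.00717), a call lost when either cAMP array was left out. Itgb1 (-0.20 ± 0.17) and Itgav (0.39 ± 0.16), for subunits of integrins that can activate the latent ligand, did not pass.

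Of 7 tested accessory and related receptors, limma called 0 higher and 1 lower, against 8.27% and 7.14% of all named genes tested. Their median log2 difference was -0.28, against -0.03 over all named genes. The lower one was Bambi, a receptor-like protein without a kinase that dampens TGF-beta and bone morphogenetic protein signals. It gave 211.9 and 197.7 with cAMP, against 614.1 and 516.6 in control cells, a log2 difference of -1.39 ± 0.16 (adjusted p = 0.00154) that passed with any 1 array left out. The groups were separated by more than the spread within either. Acvr1 (-0.08 ± 0.16) and Bmpr1a (-0.53 ± 0.17), type I receptors of bone morphogenetic proteins, did not pass. Eng, which encodes a TGF-beta coreceptor, and Acvrl1, for a type I receptor best known in endothelial cells, lay at or below background on all 4 arrays.

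Of 23 tested genes for other SMADs and their regulators, limma called 0 higher and 1 lower, against 8.27% and 7.14% of all named genes. Their median log2 difference was -0.04, against -0.03 over all named genes. The lower one was Crebbp, a coactivator of SMADs and of CREB (-0.59 ± 0.15, adjusted p = 0.042), whose call was lost without cAMP replicate 1, cAMP replicate 2 or control replicate 2, without the filter on dim probe sets and without the intensity trend. Its 2 other tested probe sets were not called in either direction. The bright Fkbp1a (-0.17 ± 0.16), which binds the type I receptor, and Strap (0.10 ± 0.16) did not pass.

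Of 28 tested textbook targets of TGF-beta, 6 rose, 4 fell and 18 did not pass. Over all named genes tested, 8.27% were called higher and 7.14% lower. The median log2 difference of the targets was -0.15, against -0.03 over all named genes. The largest falls were those of Ccn2, a matricellular growth factor gene, with 97.8 and 123 with cAMP, against 2348.2 and 1768.2 in control cells (-4.03 ± 0.19, adjusted p = 5.98e-05), and of Tagln. Tagln, an actin-binding protein gene, was under background on both cAMP arrays, at 1.3 and 7.4, against 344.5 and 264.3 in control cells (limma adjusted p = 0.000125). The geometric mean of its control signals was 21.2 times the background. Spsb1 (-0.92 ± 0.17) and the stress gene Gadd45b (-0.75 ± 0.18) also fell, both calls being lost when either cAMP array was left out and that of Gadd45b also without the filter or the intensity trend. The 2 other tested probe sets of Spsb1 were not called in either direction. In the other direction, the proteoglycan gene Vcan gave 271 and 296.1 with cAMP, against 45.7 and 48.5 in control cells (2.25 ± 0.17, adjusted p = 0.000326), and its 2 other tested probe sets were higher as well. The cell cycle inhibitor gene Cdkn1a (1.97 ± 0.16), the protease inhibitor gene Timp1 (2.72 ± 0.21) and Junb (2.49 ± 0.21) rose too. Each of these is also controlled by signals other than TGF-beta. The bright Tsc22d1 (0.19 ± 0.10) and Sparc (0.39 ± 0.12) did not pass.

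**Figure D4:**
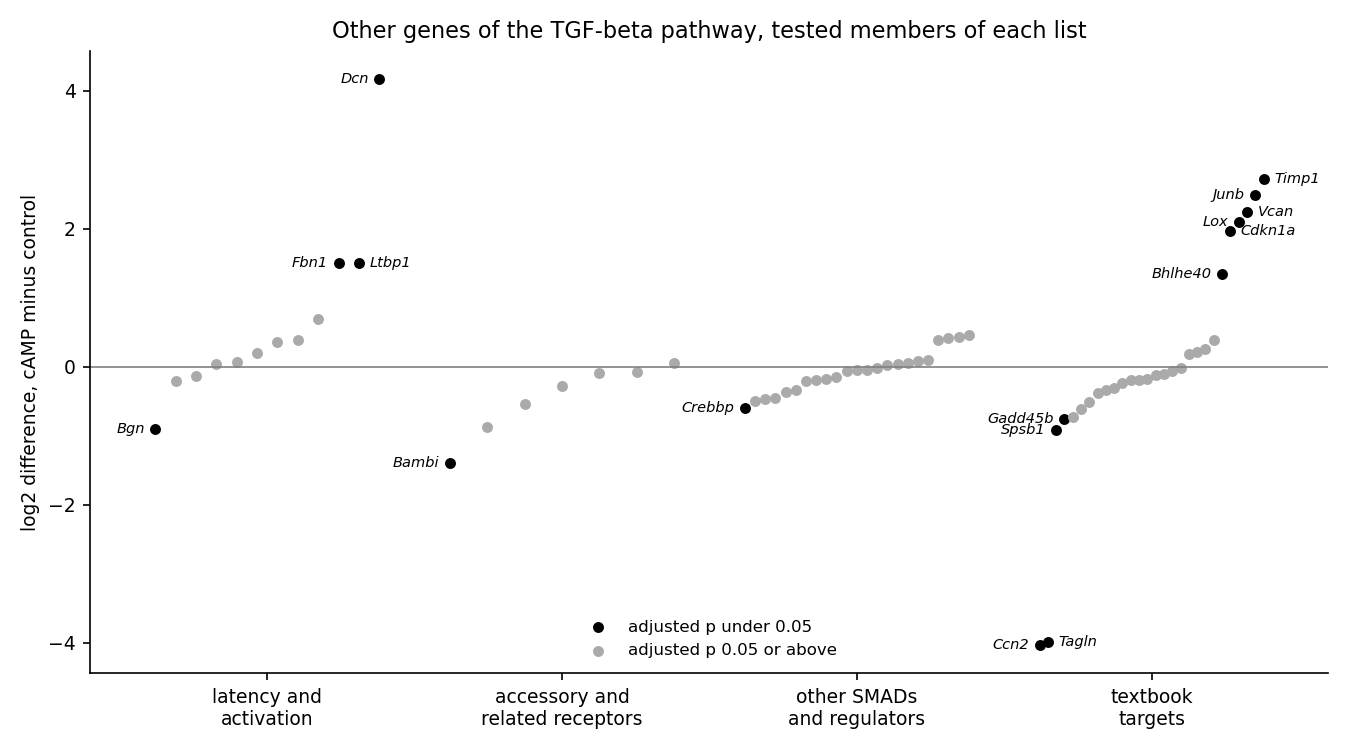
Log2 difference (cAMP minus control) of each tested gene of the 4 pathway lists, in rising order within a list. Named black points passed the adjusted p threshold of 0.05. Ltbp1, Fbn1 and Dcn stand out among the latency genes, Bambi alone among the receptors, and the textbook targets hold 6 higher and 4 lower genes.

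Of the 10 Sertoli markers tested, 3 rose and 2 fell, while 8.27% of all named genes tested were called higher and 7.14% lower. Inha, the inhibin alpha subunit gene, rose (log2 difference 2.04 ± 0.15, limma adjusted p = 0.000293), as did Dhh (0.74 ± 0.14) and Shbg (0.69 ± 0.18), while the transcription factor gene Gata4 (-0.94 ± 0.12) and Aard (-0.51 ± 0.13) fell. The calls of Dhh, Shbg, Gata4 and Aard were lost when either cAMP array was left out, those of Shbg and Aard also without control replicate 2, without the filter on dim probe sets, with quantile normalization or without the intensity trend, and the other tested probe set of Gata4 was not called. Clu (-0.18), Cldn11 (-0.14) and Wt1 (0.21) did not pass.

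Markers of other testicular cells were read beside these results, since peritubular cells also make TGF-beta ligands. The summed signal of the 9 peritubular myoid markers was 206.9 and 252.9 with cAMP, against 666.2 and 514.5 in control cells. Without Tagln the sum over the other 8 was 205.6 and 245.5 with cAMP, against 321.7 and 250.2 in control cells. Of the 9, 6 were tested: Des rose and Tagln and Synpo2 fell, the calls of Des and Synpo2 being lost when either cAMP array was left out and that of Synpo2 also without control replicate 1. Des gave 58.1 and 68.3 with cAMP, against 19.7 and 19.5 in control cells. Tpm2 (-0.69 ± 0.20) and Myh11 (-0.35 ± 0.21) did not pass. The median log2 difference of the 6 was -0.52, against -0.03 over all named genes. Cnn1, too dim to test, gave 2.3 and 12.9 with cAMP, against 19.2 and 17.6 in control cells. Acta2, which like Tagln is on the target list too, gave 67.1 and 73.2 with cAMP, against 109.6 and 60.6 in control cells. The 8 fibroblast markers summed to 541.7 and 463.6 with cAMP, against 110.7 and 123.6 in control cells, and without Dcn to 76.2 and 81.9 with cAMP, against 108.8 and 106.5 in control cells. Dcn is on the latency list too. Col1a1 was above background on all arrays and did not pass (-0.12 ± 0.22). Col1a2 gave 9.9 and 16.9 with cAMP, against 23 and 34.6 in control cells, and did not pass (-0.61 ± 0.24). Col3a1 gave 16.6 and 12.8 with cAMP, against 19.5 and 24.3 in control cells. Pdgfra gave 9.8 and 15 with cAMP, against 23 and 17 in control cells. Both were too dim to test. Lum, Dpt and Postn, also fibroblast markers, were at or below background on all arrays. The 7 endothelial markers summed to 124.1 and 131.5 with cAMP, against 271.4 and 194.5 in control cells. Most of the control sums came from the receptor gene Kdr, at 57.5 and 58.1 with cAMP, against 187.3 and 130.8 in control cells. Kdr fell (-1.23 ± 0.21), a call lost when either cAMP array was left out. Tek (-0.001 ± 0.23) and Egfl7 (-0.24 ± 0.23), also tested, did not pass. Pecam1, Vwf, Tie1 and Emcn were at or below background throughout. The 10 blood cell markers summed to 123.3 and 159.7 with cAMP, against 125 and 186.4 in control cells, and Ptprc, Cd163, Adgre1, C1qa and Itgam were at or below background throughout. These sums hold markers that went opposite ways. Cd68, of macrophages, gave 28.1 and 45.2 with cAMP, against 4.1 and 6.2 in control cells, both under background, and was too dim to test. The geometric mean of its cAMP signals was 2.51 times the background. Lyz2, a lysozyme gene of myeloid cells, gave 26.4 and 27.6 with cAMP, against 47.3 and 108.6 in control cells (-1.05 ± 0.32), and did not pass. Cd14 was above background on all arrays, at 22.6 and 39.2 with cAMP, against 24 and 31.9 in control cells. It did not pass (0.08 ± 0.25). Csf1r and Cd3e exceeded background on some arrays and were too dim to test. The 7 germ cell markers summed to 3485.2 and 2628.3 with cAMP, against 3602.8 and 3301.7 in control cells, mostly from the meiotic gene Sycp3. The 7 Leydig cell markers summed to 293.3 and 259.3 with cAMP, against 331.7 and 331.4 in control cells. Most of that came from Nr5a1, at 203.2 and 185.8 with cAMP, against 236.7 and 241.3 in control cells. Nr5a1 did not pass (-0.28 ± 0.15). Cyp11a1 was above background on every array, at 50.9 and 42.4 with cAMP, against 42.1 and 40.6 in control cells. It did not pass (0.12 ± 0.20). Hsd17b3 gave 16.4 and 9.7 with cAMP, against 23.3 and 24.3 in control cells. Insl3 gave 7 and 12.2 with cAMP, against 14.7 and 13 in control cells. Both were too dim to test. Cyp17a1, Hsd3b1 and Lhcgr, also Leydig cell markers, were at or below background on all arrays. The part of other cells in the TGF-beta results was not tested.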

How the data were processed

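The authors deposited linear probe set intensities. The submitters' processing notes name GCOS and MAS5; the sources used here give no version, setting or genome build. Leaving out the lowest and highest 2% of values, every array had a mean of 125, so the arrays had been scaled alike. Here log2(signal + 16) was computed with no further normalization. The 57 control probe sets were left out, and the 18625 probe sets at or above the 40th percentile of mean log2 value (5.10) entered a two-sided limma 3.58.1 test under R 4.3.3, by lmFit and by eBayes with an intensity trend, with no replicate term, after the script had been tested on simulated data. The number of arrays limits the precision: an exact permutation of 2 against 2 arrays cannot give a p under 0.333.

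Of the probe sets, 20832 carried 1 gene symbol, 436 several and 9831 none; 20764 of the first were matched to RefSeq GRCr8 to update symbols for the lists. The TGF-beta genes, the pathway and marker lists and the tests were chosen with earlier results of these data known. Of each pathway list the text names up to 6 called genes with the smallest p, every called gene where 5 or fewer moved in a direction, and the 2 brightest that did not pass. Other genes named, and marker sums without Tagln or Dcn, were chosen after their values were seen. All 10 genes had a promoter in the RefSeq table, and those of called genes are printed. Alternatives were other pseudocounts (64 and 1), no filter, quantile normalization, no intensity trend, a replicate block and leaving out each array.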

Additional observations from a re-analysis of the deposited data

How the results depend on the processing

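The 4 TGF-beta calls held with a pseudocount of 64 or 1, quantile normalization between arrays and no intensity trend. Without the filter on dim probe sets, 873 of 31042 probe sets were higher and 725 lower, against 1358 and 1191 of 18625 with it. In all 5.15% were called without the filter, against 13.7% with it. Of the TGF-beta probe sets, 1 of 15 was lower without the filter, in place of 2 of 11. Leaving out each array in turn gave 408 to 2419 higher and 305 to 2371 lower probe sets, 0 to 2 higher and 0 to 3 lower TGF-beta probe sets by limma, and 8 to 13 higher and 3 to 11 lower pathway genes. The lowest counts over all probe sets came without cAMP replicate 1 and the highest without control replicate 1. Where a lone array of a group remained, it was assumed to vary like the other group. Without cAMP replicate 2, the log2 differences were 1.57 for Tgfb1, -1.09 for Tgfb2 1387172_a_at, 0.87 for Tgfb3 and -0.66 for Smad4 1386984_at. Over the 4 arrays left out in turn, the log2 difference of Smad4 1367910_at ranged from -0.12 to 0.47 and that of Smad7 1368896_at from -0.20 to 0.12, so neither has a settled sign. Of the Smad4 probe sets, 1367910_at stood at 0.17 and 1386984_at at -0.69. Counting every probe set of the pathway genes gave 14 higher and 7 lower of 105 probe sets, against 9 and 7 of 68 genes. The higher count grew about in step with the number tested. The lower count did not grow, so the lower share was smaller. Over all probe sets tested, 7.29% were called higher and 6.39% lower. With the replicate number as a block, the paired fit gave 1540 higher and 1495 lower probe sets, 2 and 2 TGF-beta probe sets, and 10 and 8 pathway genes. The numbers only name the arrays: nothing in the labels ties arrays of the same number together, and deviations of same-numbered arrays from their group means correlated at 0.163. Apart from these, the causes of the changes were not tested. Signals near background limit what can be said of Smad3 1369528_at, Smad7 1368897_at and Smad7 1368898_at.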
